A study of Rattus norvegicus with 32 samples.

Results

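The 9 genes of the growth hormone axis described here were followed in rat livers taken around liver transplantation. They were 9 of the 32883 Ensembl genes in the table of values: Ghr, Stat5b, Socs2, Cish, Igf1 and Igfals, taken for their roles in hormone reception, signalling and secretion, and Cyp2c11, Ca3 and Stac3, chosen by their measured FPKM, since earlier results of these data had shown large falls after transplantation. No threshold on the fall was set. Their differences between groups are therefore given as a description, without a p-value. Every one of the 9 symbols stood on a single row, and all 9 were among the 11924 genes that had at least 1 FPKM (a read count scaled to gene length and library size) in at least 8 libraries.

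Polyadenylated RNA was sequenced from the liver of male rats of the inbred Lewis strain. The study concerned grafts with macrosteatosis, in which fat fills hepatocytes as large droplets. The 3 groups were post-transplant livers (11 libraries used of 12), livers of long-term survivors (8 of 8) and pre-transplant livers (11 of 12). The labels state strain, sex and group alone: nothing is said of fat content, treatment, age, sampling time, or which libraries share an animal, so the p-values cover the spread between these samples, part of which may be technical. Recovered reads in genes ranged from 15802817 to 18464388 per post-transplant library, from 17401155 to 18482059 per long-term survivor library and from 15372950 to 19311664 per pre-transplant library.

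Growth hormone is released by the pituitary and binds its receptor on hepatocytes, where the kinase JAK2 phosphorylates the transcription factor STAT5B. STAT5B switches on genes of secreted growth factors, of metabolic enzymes and of the inhibitors that shut the pathway off again. In rats the hormone comes in pulses in males and more steadily in females, and this difference sets the sex-biased expression of many liver genes, cytochromes P450 of the Cyp2c family among them.

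The promoters of 7 of the 9 genes were found in the RefSeq table of build GRCr8. They were searched for TTCNNNGAA, the palindrome that STAT5 proteins are known to bind, which reads alike on both strands. Within the 250 bases before the start, Cish held 4 copies, of which none overlapped another, and Ghr, Stat5b, Igf1, Igfals, Cyp2c11 and Stac3 held 0. At least 1 copy stood in 7.67% of the 33469 promoters of the table, and at least 4 copies in 2 of them. The Cish promoter is printed with the promoters of Igf1, the main secreted product, and Cyp2c11, a male-specific liver gene taken for its fall, each from 5′ to 3′ with the copies in capitals. They lie at chr8:116850719-116850968 for Cish, chr7:24172282-24172531 for Igf1 and chr1:246174966-246175215 for Cyp2c11, all on the plus strand of GRCr8.
Cish: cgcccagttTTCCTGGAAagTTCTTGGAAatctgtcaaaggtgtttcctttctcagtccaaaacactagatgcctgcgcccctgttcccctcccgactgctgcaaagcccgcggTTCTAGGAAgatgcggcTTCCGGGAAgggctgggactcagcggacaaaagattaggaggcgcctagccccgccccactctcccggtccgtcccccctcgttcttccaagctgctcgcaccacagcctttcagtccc
Igf1: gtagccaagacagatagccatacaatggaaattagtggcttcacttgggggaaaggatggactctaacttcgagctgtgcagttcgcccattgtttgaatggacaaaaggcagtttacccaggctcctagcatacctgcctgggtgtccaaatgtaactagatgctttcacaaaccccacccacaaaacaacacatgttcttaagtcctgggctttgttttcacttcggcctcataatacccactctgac
Cyp2c11: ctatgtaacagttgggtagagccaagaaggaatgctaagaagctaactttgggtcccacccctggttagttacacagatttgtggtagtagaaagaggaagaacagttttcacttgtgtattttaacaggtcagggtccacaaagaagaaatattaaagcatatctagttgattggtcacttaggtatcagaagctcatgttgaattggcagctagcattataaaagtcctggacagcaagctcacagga
The 4 copies in Cish began 241, 230, 136 and 119 bases before the start, as the pairs TTCCTGGAA with TTCTTGGAA and TTCTAGGAA with TTCCGGGAA. A match of letters is a description of these windows and not a measured binding site, and sequence outside them was not searched.

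Several libraries stood apart from their groups, and each result is read with this in view. Post-transplant replicate 9 was the highest of its group for 5 of the 9 genes, long-term survivor replicate 3 the lowest of its group for 6, and pre-transplant replicates 2 and u2 (a column without a replicate number of its own) the lowest of theirs for 3 each. Pre-transplant replicate 1 was also lowest for 3, and post-transplant replicate 2 for 4. Pre-transplant replicate 5 and survivor replicate 6 were the highest of their groups for 4 each, and survivor replicate 8 for 3. Among the survivors, replicate 3 lay very near replicate 7 and replicate 4 very near replicate 8 (chi-square per degree of freedom 3.13 and 3.45, where 136 other pairs within groups gave 24.2 to 353). These pairs differed beyond counting error, which repeat preparations of 1 liver would also do, so each pair may be 1 liver and the 8 survivor libraries may stand for 6 livers. With each pair averaged, survivor against post-transplant livers gave 1.17 ± 0.29 for Ghr (adjusted p = 0.00247) and 1.28 ± 0.35 for Igfals (adjusted p = 0.00441). Across all genes tested the median log2 fold change was -0.03 for post- against pre-transplant livers, -0.17 for long-term survivor against pre-transplant livers and -0.16 for long-term survivor against post-transplant livers. With median-of-ratios rescaling these medians were -0.04, -0.01 and 0.01. The 3 comparisons share libraries, so their values for a gene are given side by side and are not independent.

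The receptor was lower after transplantation. Ghr, which encodes the growth hormone receptor (ENSRNOG00000015654, chr2:53150370-53413638, Rnor_6.0), had 34.4, 57.0 and 173 FPKM as lowest, median and highest value in post-transplant livers, 111, 178 and 198 FPKM in long-term survivor livers, and 110, 232 and 286 FPKM in pre-transplant livers. Post-transplant replicates 5, 8 and 9, with 169, 140 and 173 FPKM, overlapped the pre-transplant range, and the other 8 lay below every pre-transplant library. The log2 fold change on the log2(FPKM + 1) scale, ± SE, was -1.43 ± 0.24 for post- against pre-transplant livers (limma, adjusted p = 1.73e-05). In long-term survivor livers Ghr was 1.11 ± 0.26 higher than in post-transplant livers (adjusted p = 0.00111), and 5 of 8 survivor libraries lay above every post-transplant one. Long-term survivor against pre-transplant livers gave -0.32 ± 0.26 (adjusted p = 0.363), with a 95% interval of -0.86 to 0.22. Gene coordinates come from the authors' table, and the build is the rat build in the submitters' processing notes.

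**Figure D1:**
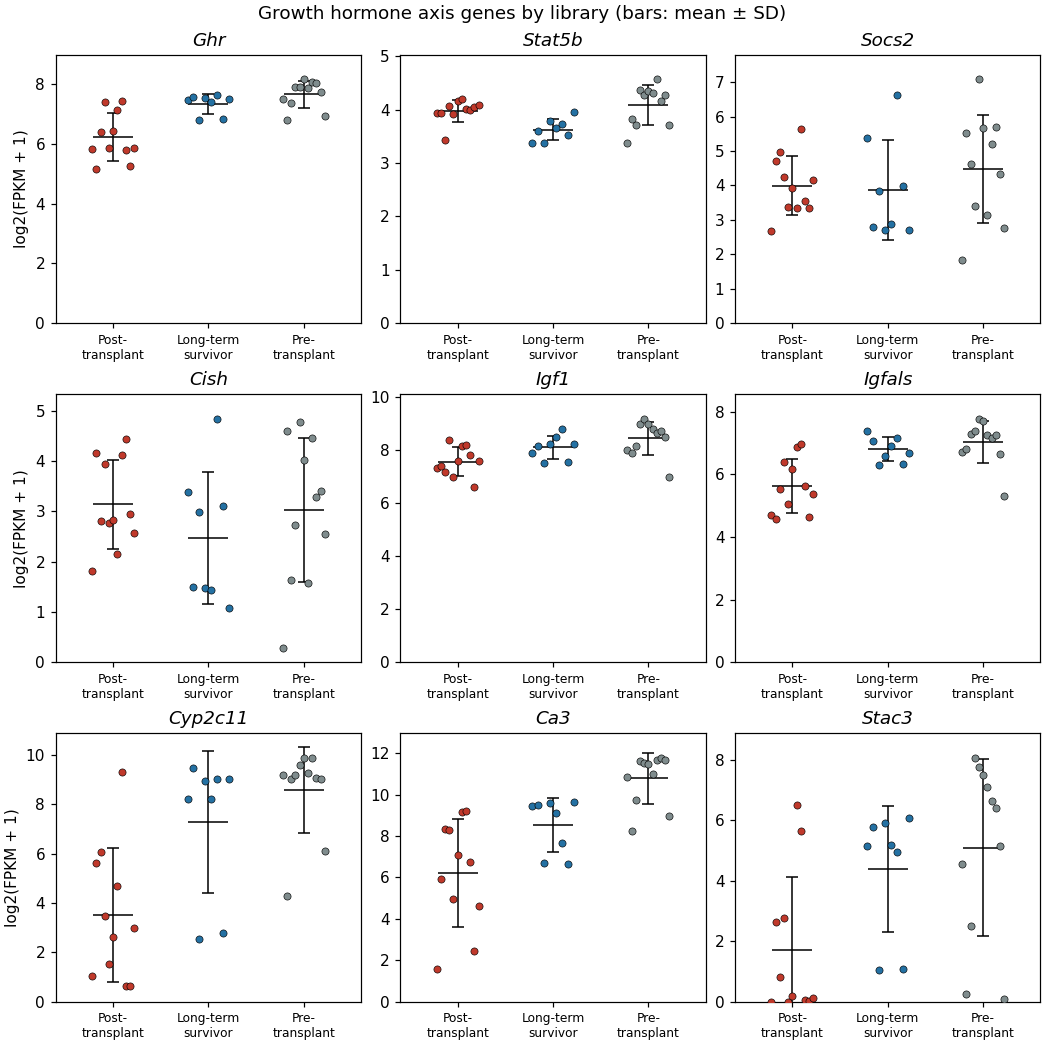
Level of each of the 9 genes in every library, as log2(FPKM + 1) on the vertical axis, for 11 post-transplant, 8 long-term survivor and 11 pre-transplant libraries. Points are libraries, and bars give the mean ± SD. Ghr, Igf1 and Igfals are lower post-transplant, Socs2 and Cish scatter widely in every group, and Cyp2c11, Ca3 and Stac3 span the widest range.

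Of the signal transducer and the feedback inhibitors, none passed the test in post- against pre-transplant livers; their differences from Ghr were not tested. Stat5b, the main STAT5 gene of hepatocytes (ENSRNOG00000019075, chr10:88686207-88754829), had 9.77, 15.05 and 17.4 FPKM as lowest, median and highest value in post-transplant livers, 9.40, 11.3 and 14.4 FPKM in long-term survivor livers and 9.41, 18.3 and 22.7 FPKM in pre-transplant livers. All 3 ranges overlapped, and post-transplant replicate 4 was the single post-transplant library under 14 FPKM. Post- against pre-transplant livers gave -0.11 ± 0.11 (adjusted p = 0.461, 95% interval -0.34 to 0.13). Stat5b fell by 0.46 ± 0.13 in long-term survivor against pre-transplant livers (adjusted p = 0.00539) and by 0.35 ± 0.13 against post-transplant livers (adjusted p = 0.0210). Both calls ended after median-of-ratios rescaling (-0.27, adjusted p = 0.136, and -0.16, adjusted p = 0.321) and with voom applied to recovered reads (adjusted p = 0.142 and 0.322), the second also without long-term survivor replicates 3 and 7 (adjusted p = 0.0816).

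Socs2 encodes a suppressor of cytokine signalling that binds the growth hormone receptor and is itself induced by the hormone (ENSRNOG00000008965, chr7:36495480-36499784). It had 5.45, 14.3 and 49.0 FPKM as lowest, median and highest value in post-transplant livers, 5.48, 9.86 and 98.2 FPKM in long-term survivor livers and 2.58, 23.4 and 135 FPKM in pre-transplant livers. The pre-transplant range covered the values of both other groups, and the highest pre-transplant library, replicate 5, was 52.2 times the lowest, replicate 1. Post- against pre-transplant livers gave -0.49 ± 0.53 (adjusted p = 0.472, 95% interval -1.57 to 0.60), and long-term survivor against pre-transplant livers gave -0.61 ± 0.58 (adjusted p = 0.434). The value against pre-transplant livers passed the threshold with array weights (-1.33, adjusted p = 0.0331). Long-term survivor against post-transplant livers gave -0.13 ± 0.58 (adjusted p = 0.873), a sign that turned with several settings.

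Cish, which encodes the related inhibitor CIS whose promoter is printed above (ENSRNOG00000029543, chr8:116054465-116060723), had 2.50, 6.14 and 20.6 FPKM as lowest, median and highest value in post-transplant livers, 1.13, 4.37 and 27.7 FPKM in long-term survivor livers and 0.212, 8.78 and 26.3 FPKM in pre-transplant livers. Here too the groups overlapped through nearly their whole range, and the lowest and highest pre-transplant libraries were again replicates 1 and 5. Post- against pre-transplant livers gave 0.11 ± 0.50 (adjusted p = 0.871, 95% interval -0.90 to 1.13), with a sign that turned in 6 of 41 alternatives. Long-term survivor livers gave -0.55 ± 0.54 against pre-transplant livers (adjusted p = 0.453) and -0.66 ± 0.54 against post-transplant livers (adjusted p = 0.321). Over the 3 comparisons of Socs2 and of Cish the lower bounds of the 95% intervals lay between -1.80 and -0.90 and the upper bounds between 0.44 and 1.13. Every interval held both falls and rises, so in the main fit neither was told apart from no change. Larger falls and larger rises lay outside the intervals.

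Both secreted products were lower after transplantation. Igf1 encodes insulin-like growth factor 1, the hormone through which much of the growth effect is exerted (ENSRNOG00000004517, chr7:28412198-28486609). It had 95.8, 190 and 328 FPKM as lowest, median and highest value in post-transplant livers, 180, 290 and 443 FPKM in long-term survivor livers and 127, 400 and 580 FPKM in pre-transplant livers. Of the pre-transplant libraries, 7 of 11 lay above every post-transplant one, and pre-transplant u2, at 127 FPKM, lay among the lowest post-transplant values. Igf1 fell by 0.87 ± 0.23 in post- against pre-transplant livers (adjusted p = 0.00220). Long-term survivor livers gave -0.33 ± 0.25 against pre-transplant livers (adjusted p = 0.315), which passed the threshold with array weights (adjusted p = 0.0242). Against post-transplant livers they gave 0.54 ± 0.25 (adjusted p = 0.0744), a value that passed the threshold in 8 of 40 alternatives, among them median-of-ratios rescaling (0.75, adjusted p = 0.0164).

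Igfals encodes the acid-labile subunit, a liver protein that holds IGF1 and its binding protein in a stable complex in blood (ENSRNOG00000015061, chr10:14240219-14243597). Its values were 22.99, 45.4 and 123 FPKM (lowest, median, highest) in post-transplant livers, 76.7, 111 and 165 FPKM in long-term survivor livers and 38.8, 150 and 218 FPKM in pre-transplant livers. Post-transplant replicates 2, 3, 6 and 11 lay below every pre-transplant library, and 7 of 11 pre-transplant libraries lay above every post-transplant one. Igfals fell by 1.40 ± 0.29 in post- against pre-transplant livers (adjusted p = 0.000167). In long-term survivor livers it was 1.17 ± 0.31 higher than in post-transplant livers (adjusted p = 0.00280), and against pre-transplant livers the value was -0.23 ± 0.31 (adjusted p = 0.600, 95% interval -0.86 to 0.41).

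Of the 6 genes taken by role, 3 were therefore lower in post- than in pre-transplant livers and 0 higher, beside 26.6% of all genes tested that were lower and 23.4% that were higher. That count was 3 in all 41 alternatives. Without post-transplant replicate 9 and pre-transplant u2 the 3 values were -1.62 ± 0.23 for Ghr, -1.08 ± 0.21 for Igf1 and -1.70 ± 0.24 for Igfals. These libraries were picked after seeing the data, as a high post-transplant and a low pre-transplant one. Leaving them out enlarges the falls by that choice and is no check on them. In long-term survivor against pre-transplant livers 1 of 6 was lower and 0 higher, where 30.8% of all genes were lower and 3.85% higher, so the count does not exceed the background. In long-term survivor against post-transplant livers 2 of 6 were higher and 1 lower, beside 10.5% higher and 36.9% lower among all genes. Both the count and the background depend on scaling. After median-of-ratios rescaling 2576 of 11904 genes were higher and 2487 lower, Stat5b lost its call and Igf1 gained one. None of the 9 genes had groups free of overlap in any comparison, while 0.964%, 3.09% and 5.59% of all genes were lower without overlap in the 3 comparisons in the order above.

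Sample titles run in blocks of neighbouring numbers, each with pre- and post-transplant livers, and the labels do not say whether a block is a batch or a treatment. Within the blocks M2 to M7, M8 to M13, M15 to M20 and M21 to M26 the difference in mean log2(FPKM + 1), post minus pre, was -1.74, -1.44, -0.33 and -2.35 for Ghr. For Igf1 the same differences were -0.63, -1.54, 0.23 and -1.38. For Igfals they were -2.29, -1.97, 0.67 and -1.997. The block M15 to M20 thus differed least for Ghr and went the other way for Igf1 and Igfals. It holds post-transplant replicates 7, 8 and 9 and both pre-transplant columns without a number, u1 and u2. With the block as an added term all 3 genes kept their sign and their call.

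The 3 genes taken for their falls differed by more, and so did the libraries within a group. Cyp2c11, a P450 steroid hydroxylase that male rat livers make and female ones lack (ENSRNOG00000052810, chr1:257970345-258004434), had 0.558, 6.97 and 640 FPKM as lowest, median and highest value in post-transplant livers, 4.80, 391 and 705 FPKM in long-term survivor livers and 18.4, 573 and 940 FPKM in pre-transplant livers. Post-transplant replicate 9 alone was in the upper part of the pre-transplant range, the next post-transplant library had 65.1 FPKM, and 7 of 11 lay below every pre-transplant library. Pre-transplant replicates 2 and u2, with 18.4 and 68.5 FPKM, were far below the other 9, which had 518 to 940 FPKM. Long-term survivor replicates 3 and 7, with 4.80 and 5.80 FPKM, were far below the other 6, which had 293 to 705 FPKM. The log2 fold change was -5.08 ± 0.99 for post- against pre-transplant livers, -1.32 ± 1.08 for long-term survivor against pre-transplant livers and 3.76 ± 1.08 for long-term survivor against post-transplant livers. The first value was -5.90 ± 0.92 without post-transplant replicate 9 and pre-transplant u2, and the second turned to 0.22 ± 0.99 without long-term survivor replicates 3 and 7. The libraries left out were picked after seeing the data, so the direction of both shifts was set by that choice. Reads of Cyp2c11 and of the Cyp2c genes named further on may be shared between these close relatives, since the counting program is not given in the sources used here.

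Ca3 encodes carbonic anhydrase 3, an abundant cytosolic protein of liver, muscle and fat that is more abundant in male than in female rat liver (ENSRNOG00000010079, chr2:88126667-88135410). It had 1.96, 105.5 and 598 FPKM as lowest, median and highest value in post-transplant livers, 100.9, 621 and 794 FPKM in long-term survivor livers and 305, 2837 and 3499 FPKM in pre-transplant livers. Of the pre-transplant libraries 9 of 11 lay above every library of both other groups, and replicates 2 and u2, with 305 and 503 FPKM, did not. The log2 fold change was -4.56 ± 0.76 for post- against pre-transplant livers, -2.24 ± 0.83 for long-term survivor against pre-transplant livers and 2.32 ± 0.83 for long-term survivor against post-transplant livers. Unlike Cyp2c11, Ca3 kept its negative value in survivor livers without replicates 3 and 7 (-1.62 ± 0.89). Adipocyte markers summed to 23.4 to 103.7 FPKM in post-transplant livers, 10.2 to 22.1 FPKM in long-term survivor livers and 11.6 to 34.5 FPKM in pre-transplant livers over 6 genes, of which the defining Adipoq and Plin1 reached at most 0.262 and 0.0795 FPKM in any library. The 2 tested ones, Cfd and Fabp4, both rose in post- against pre-transplant livers, and their part in the Ca3 values was not tested.

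Stac3 is known from skeletal muscle, where its protein takes part in the coupling of excitation to contraction (ENSRNOG00000008050, chr7:70807867-70815270). Its values were 0, 0.129 and 89.7 FPKM (lowest, median, highest) in post-transplant livers, 1.08, 34.7 and 66.0 FPKM in long-term survivor livers and 0.0648, 84.0 and 265 FPKM in pre-transplant livers. Post-transplant replicates 2 and 6 had 0 reads, which allows up to 0.0889 and 0.0973 FPKM at 3 reads by counting error alone, while replicates 8 and 9 had 89.7 and 49.2 FPKM. Pre-transplant u2, 2 and 3, at 0.0648, 0.207 and 4.62 FPKM, and long-term survivor replicates 3 and 7, at 1.08 and 1.14 FPKM, were the low libraries of their groups. Within the blocks M2 to M7, M8 to M13, M15 to M20 and M21 to M26 the difference in mean log2(FPKM + 1), post minus pre, was -1.12, -6.56, 1.49 and -6.64. Stac3 thus went the other way in M15 to M20. Cyp2c11 and Ca3 were lower post-transplant in every block, least so in M15 to M20 (-2.02 and -1.83). The log2 fold change was -3.38 ± 1.03 for post- against pre-transplant livers, -0.69 ± 1.12 for long-term survivor against pre-transplant livers, which turned to 0.41 without replicates 3 and 7, and 2.69 ± 1.12 for long-term survivor against post-transplant livers. Skeletal muscle markers summed to 0.836 to 4.56 FPKM per post-transplant library, 0.806 to 2.51 per long-term survivor library and 0.690 to 1.62 per pre-transplant library over 8 measured genes, with the myoglobin gene Mb at 0 in every library and 0 of 1 tested gene past the threshold in any comparison.

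**Figure D2:**
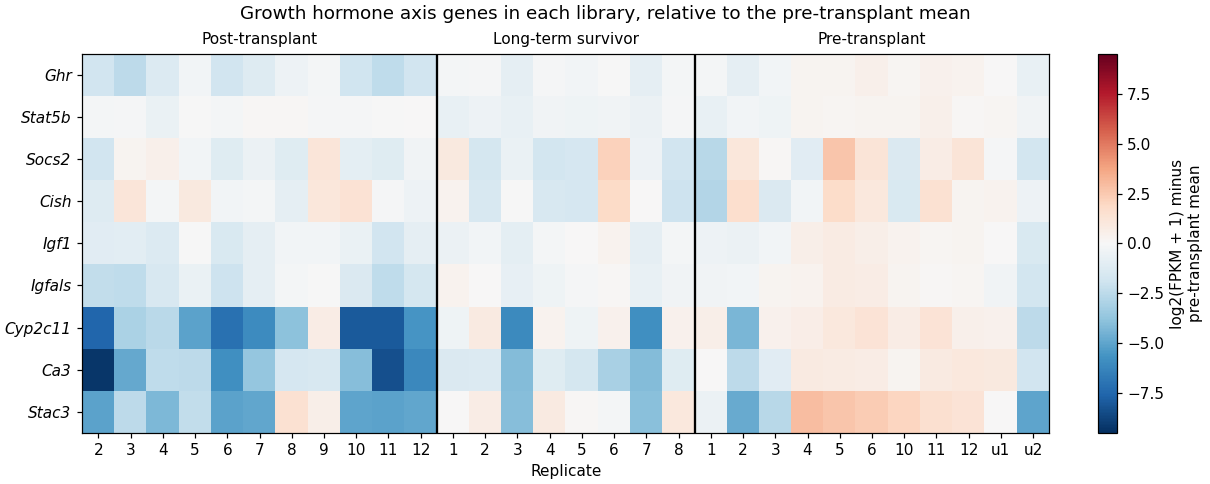
Level of the 9 genes in each of the 30 libraries as the difference in log2(FPKM + 1) from the pre-transplant mean, with post-transplant libraries at the left, long-term survivors in the middle and pre-transplant libraries at the right. Blue is lower and red higher than that mean. Cyp2c11, Ca3 and Stac3 are low together in most post-transplant libraries, in long-term survivor replicates 3 and 7 and in pre-transplant replicates 2 and u2.

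Of 19 other tested genes of receptor signalling and its regulation, 9 were higher, 3 lower and 7 not past the test in post- against pre-transplant livers, where 23.4% of all genes were higher and 26.6% lower. The list's median log2 fold change was 0.52, and that of all genes was -0.03. Ptpn1, a phosphatase that removes phosphate from JAK2, had 10.2, 25.1 and 40.2 FPKM (lowest, median, highest) in post-transplant livers and 5.49, 6.45 and 9.81 FPKM in pre-transplant livers, without overlap, as for 2.98% of all genes tested in that direction. It rose by 1.49 ± 0.15 (adjusted p = 1.25e-08). Stat3, the transducer of interleukin 6 signals, rose by 1.32 ± 0.14 (adjusted p = 1.53e-08), the receptor's kinase gene Jak2 by 1.09 ± 0.13 (adjusted p = 1.44e-07) and the adaptor gene Shc1 by 0.60 ± 0.07 (adjusted p = 1.60e-07). The 3 that fell were Cebpa (-0.97 ± 0.21), Irs1 (-0.60 ± 0.13) and Sh2b1, an adaptor of JAK2 (-0.30 ± 0.08), with adjusted p at most 0.00308. Jak2 and Stat3 likewise had no overlap between the groups: Jak2 had 6.45 to 17.2 FPKM in post-transplant livers and 2.70 to 4.29 FPKM in pre-transplant livers.

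In long-term survivor livers the signalling list gave 2 genes higher and 4 lower than pre-transplant, with a median of -0.14, beside 3.85% of all genes higher and 30.8% lower, a background that the count of lower genes does not exceed. After rescaling or with voom 2 were higher and 0 lower. Among all genes 983 of 11904 were then higher and 1146 lower after rescaling, and 974 and 1045 of 11924 with voom. Prlr, the prolactin receptor, is closely related to the growth hormone receptor and had 10.8, 21.8 and 28.9 FPKM (lowest, median, highest) in long-term survivor livers and 1.90, 7.27 and 17.05 FPKM in pre-transplant livers, a rise of 1.66 ± 0.42 (adjusted p = 0.00295). Stat3 rose by 0.63 ± 0.15 (adjusted p = 0.00174), and Sh2b1 fell by 0.32 ± 0.09 (adjusted p = 0.00644) and the phosphatase gene Ptpn11 by 0.29 ± 0.08 (adjusted p = 0.00731). The other two lower genes were Shc1 (-0.23 ± 0.08, adjusted p = 0.0256) and Stat5a, the close relative of Stat5b (-0.43 ± 0.14, adjusted p = 0.0188). Against post-transplant livers 3 signalling genes were higher and 12 lower, beside 10.5% of all genes higher and 36.9% lower. After rescaling 4 of 18 were higher and 8 lower, beside 2576 higher and 2487 lower among all 11904 genes tested. The 4 with the smallest adjusted p were lower in the survivors: Shc1 (-0.82 ± 0.08), Ptpn1 (-1.52 ± 0.16), Socs3, a suppressor of cytokine signals (-2.53 ± 0.35), and Ptpn2, a further phosphatase (-0.98 ± 0.15), with adjusted p at most 5.51e-06. The 3 higher ones were Prlr (1.37 ± 0.42), Cebpa, a transcription factor of hepatocytes (0.80 ± 0.23), and Irs1, the insulin receptor substrate (0.35 ± 0.14), with adjusted p at most 0.0385. Socs3 had 3.34, 5.88 and 11.1 FPKM in long-term survivor livers and 13.3, 42.2 and 105.3 FPKM in post-transplant livers, without overlap, as for 5.59% of all genes tested in that direction. Jak2, Ptpn1, Ptpn11, Shc1 and Grb10 of the same list were also lower in the survivors without overlap. Socs2 and Cish, of the same family as Socs3, did not pass the test in any of the 3 comparisons.

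Of 10 tested genes of the insulin-like growth factor system other than Igf1 and Igfals, 5 were higher and 0 lower in post- than in pre-transplant livers, with a median of 0.26, beside 23.4% of all genes higher and 26.6% lower. Igfbp2, a binding protein that the liver secretes, had 6.13, 30.4 and 87.1 FPKM (lowest, median, highest) in post-transplant livers and 0.511, 2.79 and 147 FPKM in pre-transplant livers. The highest pre-transplant value, in replicate 2, exceeded every post-transplant one, and the log2 fold change was 1.99 ± 0.64 (adjusted p = 0.0113). Igfbp1, a binding protein induced by fasting and low insulin, rose by 1.67 ± 0.62 (adjusted p = 0.0268), Igfbp7 by 0.67 ± 0.17 (adjusted p = 0.00191) and Igfbp6, which prefers IGF2, by 0.77 ± 0.27 (adjusted p = 0.0201). The fifth was Igf2r, a receptor that clears IGF2 (0.36 ± 0.14, adjusted p = 0.0289). In long-term survivor against pre-transplant livers 2 of the 10 were higher and 0 lower, beside 3.85% of all genes higher and 30.8% lower. The 2 were Igfbp2 (2.002 ± 0.703, adjusted p = 0.0274) and Igfbp7 (0.60 ± 0.19, adjusted p = 0.0145). With the closest survivor pairs averaged 0 of the 10 passed, beside 287 higher and 2788 lower among all 11924 genes tested. Against post-transplant livers 0 were higher and 2 lower, Igf2r (-0.70 ± 0.15, adjusted p = 0.000356) and Igfbp6 (-0.74 ± 0.30, adjusted p = 0.0402). All genes were higher in 10.5% and lower in 36.9% there, so the 2 lower genes do not exceed the background. After rescaling 1 of the 10 was higher and 1 lower, beside 2576 higher and 2487 lower among all 11904 genes tested.

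Sex-biased genes were read in livers that all came from males per the labels. Of 3 tested male-biased genes 0 were higher and 2 lower in post- than in pre-transplant livers, beside 23.4% of all genes higher and 26.6% lower. Cyp2c13, a male-biased P450, had 90.6, 327 and 2037 FPKM (lowest, median, highest) in post-transplant livers and 426, 1876 and 2527 FPKM in pre-transplant livers, a fall of 2.21 ± 0.39 on the log2 scale (adjusted p = 2.54e-05). Its highest post-transplant value was again in replicate 9. Ust5r, a transporter gene, fell by 2.08 ± 0.36 (adjusted p = 2.21e-05). Both were higher in long-term survivor than in post-transplant livers (Cyp2c13 1.96 ± 0.42, adjusted p = 0.000409, and Ust5r 1.54 ± 0.39, adjusted p = 0.00195). Neither passed the test in long-term survivor against pre-transplant livers (0 of 3 higher, 0 lower, and adjusted p = 0.672 for Cyp2c13 and 0.303 for Ust5r). The third gene, Cyp4a2, passed in none of the 3 comparisons. It had 13.6 to 305 FPKM in post-transplant livers and 13.1 to 354 FPKM in pre-transplant livers.

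Of 5 tested female-biased genes 2 were higher and 1 lower in post- than in pre-transplant livers, which with 5 genes is near the 23.4% higher and 26.6% lower among all genes. Cux2, a transcription factor expressed in female rat liver, had 0.569, 7.46 and 12.0 FPKM (lowest, median, highest) in post-transplant livers and 0.0643, 0.226 and 13.1 FPKM in pre-transplant livers, and rose by 1.86 ± 0.37 (adjusted p = 0.000139). The 13.1 FPKM belonged to pre-transplant replicate 2, the library with the lowest pre-transplant Cyp2c11, and the 0.569 FPKM to post-transplant replicate 9, the library with the highest post-transplant Cyp2c11. Other libraries had little of both genes. Long-term survivor replicates 3 and 7 had 0.966 and 1.02 FPKM of Cux2 with 4.80 and 5.80 FPKM of Cyp2c11. Post-transplant replicate 11 had 1.96 and 0.558 FPKM. The relation of these 2 genes was not tested. Cyp2c12, the main female-specific P450, had 1.54, 15.9 and 90.9 FPKM in post-transplant livers and 1.97, 3.82 and 13.9 FPKM in pre-transplant livers, and rose by 1.46 ± 0.46 (adjusted p = 0.0100). Cyp2a1, a testosterone hydroxylase counted among the female-biased genes, instead fell by 1.08 ± 0.22 (adjusted p = 0.000201).

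In long-term survivor against pre-transplant livers 2 of the 5 female-biased genes were higher and 0 lower, beside 3.85% of all genes higher and 30.8% lower. With the closest survivor pairs averaged 0 of the 5 passed, beside 287 higher and 2788 lower among all 11924 genes tested. Cyp2c7 had 1293, 2158 and 2743 FPKM (lowest, median, highest) in long-term survivor livers and 305, 725 and 1567 FPKM in pre-transplant livers, a rise of 1.49 ± 0.51 (adjusted p = 0.0255). Srd5a1, a steroid reductase gene, rose by 1.14 ± 0.45 (adjusted p = 0.0473). Against post-transplant livers Cyp2a1 (1.35 ± 0.24, adjusted p = 5.93e-05) and Cyp2c7 (2.34 ± 0.51, adjusted p = 0.000524) were higher, and Cux2 (-1.74 ± 0.40, adjusted p = 0.000871) and Cyp2c12 (-1.41 ± 0.51, adjusted p = 0.0228) were lower.

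**Figure D3:**
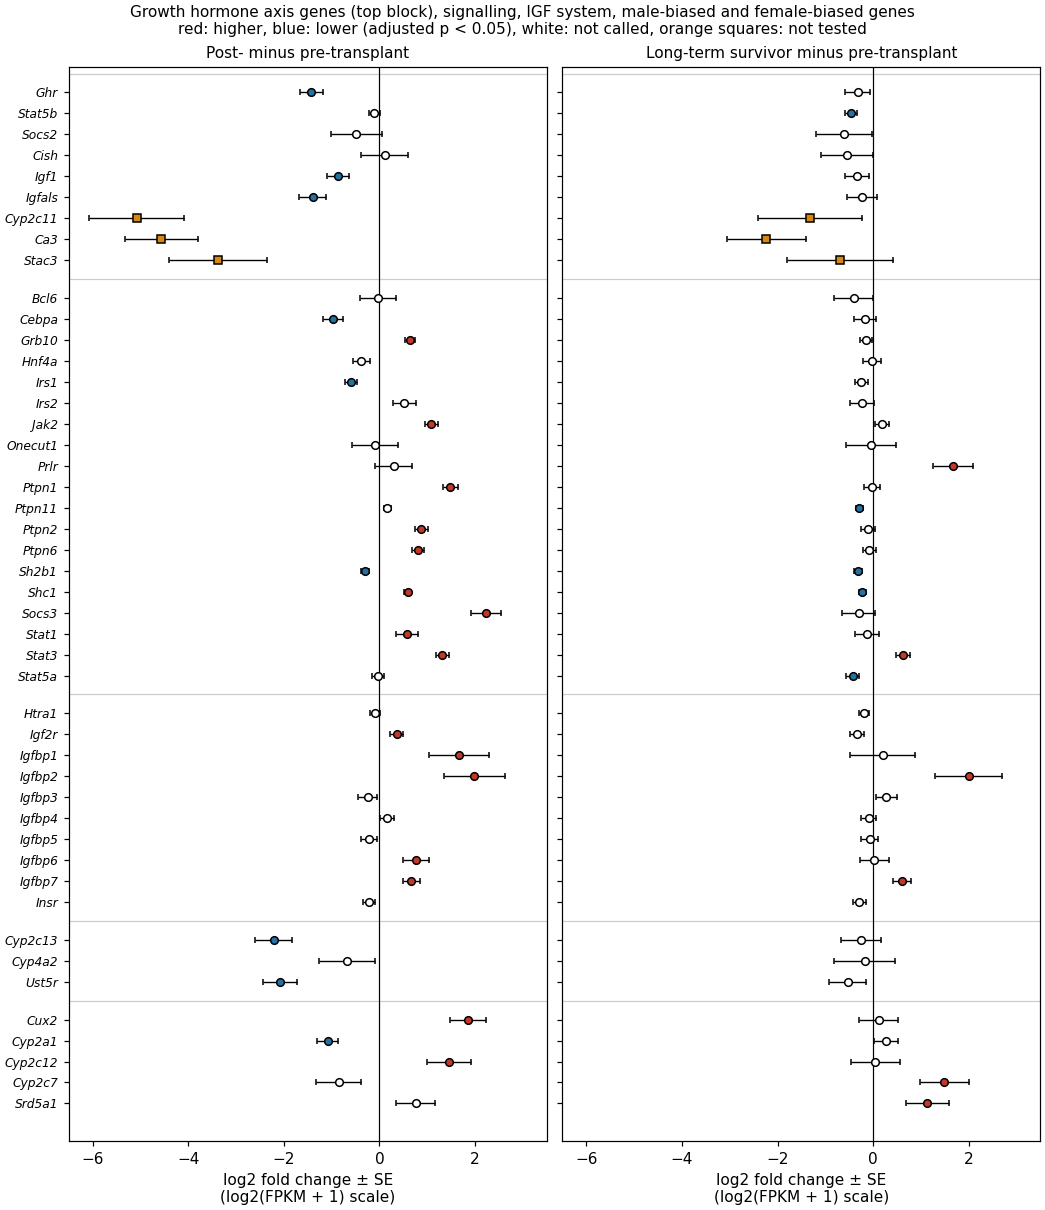
Log2 fold change ± SE on the log2(FPKM + 1) scale for the 9 growth hormone axis genes and, in blocks under them, signalling genes, the IGF system, male-biased and female-biased liver genes. The left panel gives post- minus pre-transplant livers and the right panel long-term survivor minus pre-transplant livers, with red and blue for genes past an adjusted p of 0.05. Most filled points of the signalling and IGF blocks lie right of 0 post-transplant, while Ghr, Igf1 and Igfals lie left of it.

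Markers of the cells in the tissue moved with these groups. All 8 hepatocyte markers were measured in every library, which fits the liver label, and they summed to a median of 58867 FPKM in post-transplant livers (35051 to 109288), 86604 FPKM in long-term survivor livers (66472 to 102450) and 97999 FPKM in pre-transplant livers (60474 to 117611). Of the 8, Hpx (1.30 ± 0.19) and Fgb (1.23 ± 0.22) rose and Ttr (-2.08 ± 0.28), Apoh (-1.19 ± 0.21) and Alb (-1.23 ± 0.23) fell in post- against pre-transplant livers (adjusted p at most 4.87e-05). In the same comparison 7 of 8 macrophage, 5 of 5 neutrophil, 5 of 6 stellate cell and fibroblast and 8 of 9 acute phase markers rose and 0 fell, beside 23.4% of all genes higher and 26.6% lower. Macrophage markers summed to 390 to 1000 FPKM in post-transplant livers, 167 to 224 FPKM in long-term survivor livers and 118 to 301 FPKM in pre-transplant livers. Acute phase markers summed to 18758 to 73207 FPKM in post-transplant livers, lowest in replicate 9, to 13198 to 32099 FPKM in long-term survivor livers and to 10460 to 15703 FPKM in pre-transplant livers. Bile duct markers were higher in 2 of 4 cases in post- against pre-transplant livers and in 4 of 4 in long-term survivor livers against either other group. Among all genes, 3.85% were higher in survivors than pre-transplant and 10.5% than post-transplant. With the closest survivor pairs averaged 1 of 4 was higher than post-transplant, beside 1079 of 11924 genes. They summed to 13.8 to 41.5 FPKM in post-transplant livers, 17.3 to 92.2 FPKM in long-term survivor livers and 6.36 to 35.2 FPKM in pre-transplant livers. Long-term survivor replicates 3 and 7, the low libraries for Cyp2c11, Ca3 and Stac3, had 88.4 and 92.2 FPKM, and the other 6 survivor libraries had 17.3 to 56.7 FPKM. Endothelial markers rose in 3 of 5 cases and fell in 1 in post- against pre-transplant livers, and fell in 3 of 5 in long-term survivor against pre-transplant livers and in 4 of 5 against post-transplant livers, with 0 rising. All genes were lower in 30.8% and 36.9% in those 2 survivor comparisons. After rescaling the falls were again 3 of 5 and 4 of 5, beside 1146 and 2487 of 11904 genes. The part of these cells in the lower Cyp2c11, Ca3, Stac3, Ghr, Igf1 and Igfals was not tested, and in bulk RNA fewer hepatocytes and less RNA per hepatocyte cannot be told apart.

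Within groups the 9 genes fell into sets by how they varied together. On deviations of log2(FPKM + 1) from the group means over the 30 libraries, the 15 pairs among Ghr, Igf1, Igfals, Cyp2c11, Ca3 and Stac3 had a Pearson r of 0.56 to 0.84. Socs2 or Cish with those 6 genes gave -0.05 to 0.43 over 12 pairs, and Socs2 with Cish gave 0.83. Stat5b with the other members gave 0.16 to 0.62. These are descriptions over libraries that share groups, depth and tissue make-up, and no p-value is given for them.

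Correlations within a group were computed for 8 pairs in post- and in pre-transplant livers, 16 relations in all with 11 libraries each, with two-sided permutation tests (100000 resamples) and Benjamini-Hochberg adjustment. Libraries were shuffled freely across the title blocks, so the p-values take no account of differences between blocks. Such differences were present: post-transplant Ghr had 34.4 to 55.9 FPKM in M2 to M7 and 85.7 to 173 FPKM in M15 to M20. Their part in the correlations was not tested. Ghr and Igfals had r = 0.93 and rho = 0.90 in post-transplant livers (permutation p = 0.000140 and 0.000280, adjusted 0.00192 and 0.00448), and r = 0.91 without the 2 libraries farthest from the median of Ghr. In pre-transplant livers the same pair had r = 0.70 and rho = 0.57 (permutation p = 0.0281 and 0.0688, adjusted 0.0321 and 0.0847), and r = 0.50 without 2 and u2. Igf1 and Igfals had r = 0.82 and rho = 0.79 in post-transplant livers (permutation p = 0.00236 and 0.00496, adjusted 0.00480 and 0.00914, r = 0.81 without the farthest 2) and r = 0.92 and rho = 0.85 in pre-transplant livers (permutation p = 0.000500 and 0.00150, adjusted 0.00267 and 0.00600, r = 0.77 without u2 and 2).

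Socs2 and Cish had r = 0.84 and rho = 0.80 in pre-transplant livers (permutation p = 0.00186 and 0.00488, adjusted 0.00480 and 0.00914), and r = 0.69 without replicates 1 and 5. In post-transplant livers they had r = 0.57 and rho = 0.51 (permutation p = 0.0695 and 0.116, adjusted 0.0742 and 0.124), and r = 0.26 without replicates 9 and 2. Ghr and Cyp2c11 had r = 0.90 and rho = 0.85 in pre-transplant livers (permutation p = 0.000240 and 0.00150, adjusted 0.00192 and 0.00600, r = 0.68 without 2 and u2) and r = 0.55 and rho = 0.56 in post-transplant livers (permutation p = 0.0880 and 0.0750, adjusted 0.0880 and 0.0858, r = 0.33 without 9 and 5). Cyp2c11 and Ca3 in pre-transplant livers had r = 0.89 but rho = 0.44 (permutation p = 0.00342 and 0.183, adjusted 0.00608 and 0.183), and r = 0.35 without 2 and u2, so that pre-transplant relation rests on these 2 libraries. In post-transplant livers the pair had r = 0.695 and rho = 0.745 (permutation p = 0.00934 and 0.0113, adjusted 0.0125 and 0.0181), and r = 0.59 without replicates 9 and 4. Values for Ghr with Igf1, Cyp2c11 with Stac3 and Ca3 with Stac3 are not printed here.

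**Figure D4:**
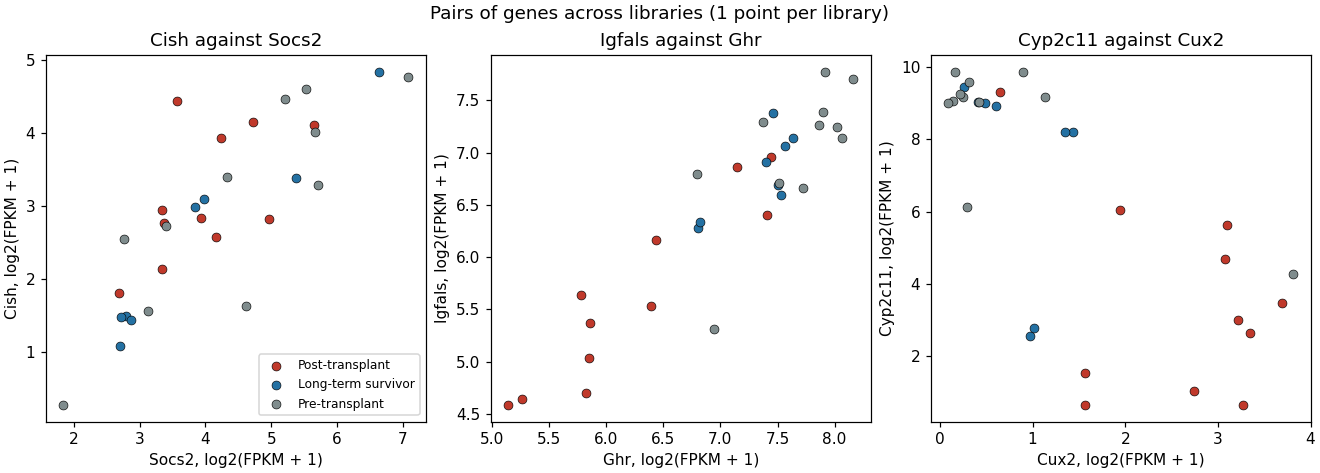
Cish against Socs2, Igfals against Ghr and Cyp2c11 against Cux2, each as log2(FPKM + 1), with 1 point per library and colours for the groups. Cish and Socs2 rise together with the groups mixed, Igfals and Ghr rise together with most post-transplant libraries at the lower left, and libraries with Cux2 near its top, pre-transplant replicate 2 among them, have low Cyp2c11. Some libraries with little Cux2, such as long-term survivor replicates 3 and 7, also have low Cyp2c11. The relation of Cux2 with Cyp2c11 was not tested.

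Among the tested genes that had a gene name, those whose within-group deviations were most like those of each member differed from set to set. For Ghr they were Cat, the catalase gene (r = 0.94), Bphl (0.93) and Serpinf1 (0.93), and for Igf1 they were Atrn (0.88), Tmem30a (0.87) and RGD1564614 (0.87). For Igfals they were Cul4a (0.91), Aknad1 (0.90) and Gltpd2 (0.89). For Stat5b they were Arl5a (0.86), Zmpste24 (0.82) and Mical2 (0.82). Each r is over 30 libraries, with no p-value.

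For Socs2 the nearest genes were Cish (0.83), Hhex (0.80) and Xbp1 (0.79), and for Cish they were Socs2 (0.831), Net1 (0.828) and Foxa1 (0.76). Each of the 2 inhibitors was thus the nearest gene of the other among the tested genes with a gene name, for Cish by a narrow margin. For Cyp2c11 they were ENSRNOG00000050595, which the table describes as major urinary protein 5 (0.94), ENSRNOG00000047613 (0.93) and LOC259244, described there as alpha-2u globulin PGCL3 (0.92). For Ca3 they were the urinary protein gene Rup2 (0.92), Dio1, the deiodinase that activates thyroid hormone (0.91), and Pon1 (0.90). For Stac3 they were LOC100360095 (0.89), described as urinary protein 1-like, Ppp1r3b, a glycogen-targeting phosphatase subunit (0.87), and ENSRNOG00000058327 (0.87). Reads of the urinary protein and alpha-2u globulin genes may be split between near-identical copies.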

How the data were processed

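The authors deposited 1 table of 32 value columns, whose values were worked out to be FPKM, since FPKM times gene length came in steps of whole reads (within 0.02 reads, for values up to 5000 reads). The submitters' processing notes list HISAT2 2.0.5, Rnor_6.0 and mm10 without roles. The program behind the counts, its annotation and the FPKM computation were not given in the sources used here. Of the columns 30 were used: 2 share a header that matches 1 post-transplant title and were left out, and 2 share a pre-transplant header and were used as u1 and u2. Differences were tested with limma 3.58.1 in R 4.3.3 (empirical Bayes, trend and robust, two-sided) on log2(FPKM + 1) over 11924 genes and 3 groups in 1 fit, with Benjamini-Hochberg adjustment and a threshold of 0.05. Fold changes on this scale understate the change of low genes. The fit was tested on simulated data.

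The alternatives were a pseudocount of 0.1, no filter, a filter of 5 FPKM, median-of-ratios scaling, array weights, a fit to only the groups compared, no trend or robust fit, title blocks as a term, closest survivor pairs averaged, voom on recovered reads and leaving out each library. Leaving out u1 and u2, post-transplant 9 with u2, or survivors 3 and 7 was chosen after seeing the data. The 9 genes and the lists were chosen with earlier results of these data known. Besides the 9, up to 4 genes per list and comparison with the smallest adjusted p, and 3 genes per member with the highest r, were named. Added after their values were seen were the further list members in counts of 5 or fewer, and ranges for Jak2, Socs3 and Cyp4a2. The signalling genes named with Socs3 for lack of overlap were also added then. Listed genes without a row under their symbol were not analysed here, nor was Mup4 of the male-biased list, whose symbol stood on 2 rows, 1 of them tested.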

Additional observations from a re-analysis of the deposited data

Results flagged for a closer look

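In long-term survivor replicate 6, Socs2 had 98.2 FPKM and Cish had 27.7 FPKM, each far from the other 7 survivor libraries, of which the highest was replicate 1 with 40.6 FPKM for Socs2 and 9.43 FPKM for Cish. The gap to the nearest library, divided by the whole range of the group, was 0.621 for Socs2 and 0.687 for Cish, above Dixon's critical value of 0.526 for 8 samples. On the log2(FPKM + 1) scale of the tests it was 0.318 and 0.388, below that value. The 9 genes were each checked in this group, and chance flags about 1 in 20 such groups. The groups of 11 libraries were too large for this rule.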

How the results depend on the processing

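Over 1089 values of single genes under alternatives, 1057 kept their direction and their side of the threshold, 5 lost the threshold, 10 gained it, 1 moved (Stac3, long-term survivor against post-transplant, 5.56 with voom) and 16 turned their sign; the causes were not tested. Genes passing in post- against pre-transplant livers numbered 5961, from 5550 to 6174 with 1 library left out and 3990 to 7377 otherwise. In long-term survivor against pre-transplant livers 4134 passed (459 higher, 3675 lower), but 2129 after median-of-ratios scaling (983 higher, 1146 lower) and 2019 with voom. Of the 6 role genes 1 passed there, against 0 with either of these settings and 3 with array weights, and of the pathway list genes 10 passed, against 6 with either setting and 5 with closest pairs averaged. In long-term survivor against post-transplant livers 5656 passed (1255 higher, 4401 lower), 3612 with a filter of 5 FPKM, and rescaling split the calls into 2576 higher and 2487 lower.

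Signs turned for Cish in post- against pre-transplant livers (-0.20 with array weights, -0.0335 without post-transplant 9 and u2, and -0.16 to 0.29 with 1 library left out), for Cyp2c11 (0.22) and Stac3 (0.41) in long-term survivor against pre-transplant livers without survivors 3 and 7, and for Socs2 in long-term survivor against post-transplant livers (0.0640 after rescaling, 0.0563 with pairs averaged, 0.0730 with voom, and -0.52 to 0.0381 with 1 library left out). Depth limits Stac3 most, with 0 to 4 reads in 6 of 11 post-transplant libraries. No paired analysis was possible because the labels do not say which libraries share an animal. Equal replicate numbers in different groups are not stated to be pairs.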
